A study of Drosophila melanogaster with 2 samples.

Results

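Deep intronic Brinker peaks are binding sites that lie inside genes but far from any promoter. They were taken from the list that the authors filtered by irreproducible discovery rate (IDR), a method that scores how well peak ranks agree between lists. A kept peak need not have a similar rank in each replicate. Of the 3380 IDR peaks on the 6 chromosome arms, 134 had no overlapping entry in replicate 4. A peak was a member when its summit fell inside an annotated gene body, in no exon of any gene, and more than 5000 bp from the nearest transcription start site (TSS) of any gene, with transposable elements not counted as genes. The rule found 412 members among 3413 IDR peaks, which is 12.2% of the 3380 on the 6 chromosome arms (95% Wilson interval 11.1 to 13.3). The rule uses position and no measured level. The word deep refers to the distance from a TSS and not to the depth within an intron.

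The study was chromatin immunoprecipitation with sequencing (ChIP-seq) of whole Drosophila melanogaster larvae, males and females together, in the wandering phase of the third instar. The transgenic line carried brk, the gene of Brinker, fused at its C terminus to eGFP, and the fusion was precipitated with an antibody against GFP. There was 1 group with 2 biological replicates, numbered 3 and 4, and the animals of both carried the fusion. Chromatin was sheared by sonication, and the labels name a possible control experiment that is not analysed here. The material is the whole organism, so a site bound in a few cells and a site bound weakly in many cannot be told apart. A tissue label could not be checked against marker genes, because peak lists hold no expression. Sequencing depth is unknown from peak lists.

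Brinker is a DNA-binding repressor of the Dpp pathway, the fly branch of bone morphogenetic protein (BMP) signalling. The ligand Dpp acts through receptors such as Tkv and Put, the activated Smad protein Mad joins Medea, and with the cofactor Schnurri they silence brk where Dpp is abundant. Where Dpp is scarce, Brinker accumulates and holds Dpp target genes off, which in wing discs places the limits of gene expression domains such as those of bi and Dad. Introns of developmental genes commonly hold enhancers, and a repressor can act at such sites away from the promoter.

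The sequences of 6 member summits show what these sites look like in base composition and in matches to the Brinker recognition sequence. They are the 4 strongest members and the strongest member of Dad and of tkv, each 201 bp centred on the summit (RefSeq Release 6 sequence, dm6 coordinates counted from 1). Capitals mark any match to the Brinker motif, which is GGCG followed by 2 pyrimidines, on either strand. Its palindromic form was counted once.
CG42238, chr2L:21009407-21009607, plus strand: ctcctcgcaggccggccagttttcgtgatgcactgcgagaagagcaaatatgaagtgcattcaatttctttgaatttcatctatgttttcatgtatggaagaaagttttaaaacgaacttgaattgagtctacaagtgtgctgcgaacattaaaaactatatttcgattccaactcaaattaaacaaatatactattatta
CG32486, chr3L:3060725-3060925, plus strand: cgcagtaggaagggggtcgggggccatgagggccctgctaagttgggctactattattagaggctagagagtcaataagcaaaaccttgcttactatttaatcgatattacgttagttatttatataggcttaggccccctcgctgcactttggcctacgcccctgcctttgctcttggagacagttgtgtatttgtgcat
spen, chr2L:166601-166801, plus strand: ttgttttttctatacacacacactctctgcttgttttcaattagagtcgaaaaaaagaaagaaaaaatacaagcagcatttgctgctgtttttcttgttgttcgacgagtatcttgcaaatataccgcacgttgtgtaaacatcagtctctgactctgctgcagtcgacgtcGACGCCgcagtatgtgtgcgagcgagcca
Eip75B, chr3L:18011817-18012017, plus strand: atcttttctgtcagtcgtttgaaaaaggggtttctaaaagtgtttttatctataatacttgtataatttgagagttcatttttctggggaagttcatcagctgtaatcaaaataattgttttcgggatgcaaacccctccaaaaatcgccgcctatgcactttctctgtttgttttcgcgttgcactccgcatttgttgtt
Dad, chr3R:17065087-17065287, plus strand: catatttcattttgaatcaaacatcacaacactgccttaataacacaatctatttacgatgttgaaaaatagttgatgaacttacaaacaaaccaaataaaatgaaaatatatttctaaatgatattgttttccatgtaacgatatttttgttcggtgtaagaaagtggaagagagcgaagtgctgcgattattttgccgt
tkv, chr2L:5252735-5252935, plus strand: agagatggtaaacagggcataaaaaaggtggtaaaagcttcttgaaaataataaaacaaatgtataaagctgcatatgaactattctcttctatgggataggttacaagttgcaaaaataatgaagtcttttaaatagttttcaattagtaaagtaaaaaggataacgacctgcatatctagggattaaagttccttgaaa
Of these 6 windows, that of spen held a match, 75 bp from the summit, and the other 5 held none. Weaker members of Dad and tkv, not printed, did hold matches. The members of Dad with signals of 187 and 168 held 1 and 2, and that of tkv with 140 held 1. Windows of Dad and tkv had a GC content of 29.9%, and the highest of the 6 was 47.8%, at CG32486. Among all 136445 windows of 201 bp tiled over the sequence open to the rule, 15.8% held a match.

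A second set is shown because it shares a word of 10 bases. It was found by ranking all 10-base words present in at least 10 member windows by their share in members over their share in the tiled windows, so its frequency in members is a description. Capitals mark the word, 10 bases are given on either side, and each stretch is oriented so that the word reads from left to right.
Cad86C, chr3R:10834994-10835023, plus strand: aaaggagcagCACTGAGAGAaaaatatacc
bbg, chr3L:14487082-14487111, plus strand: tgaaaccgagCACTGAGAGAaaagggcagt
CG43658, chrX:17551195-17551224, minus strand: aggatatgcaCACTGAGAGAaattctaaaa
kirre, chrX:3039846-3039875, plus strand: gccccaaagaCACTGAGAGAaaaatacact
caup, chr3L:12616526-12616555, plus strand: cctgttcgtgCACTGAGAGAaaaatggggt
Snoo, chr2L:7964690-7964719, plus strand: tcgagctgagCACTGAGAGAaaaaagagtg
pum, chr3R:9147694-9147723, minus strand: agcatcagtgCACTGAGAGAaattcatttg
The word was present in 14 member windows, and 7 of them are printed. In each printed stretch it is followed by at least 2 A residues. The values for both sequence sets follow the description of the peaks.

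The strongest member, in the fourth intron of CG42238 on 2L, had a deposited signal of 562 in the IDR list, 229 in replicate 3 and 325 in replicate 4. The member in the first intron of CG32486 on 3L had 548 in the IDR list, 293 in replicate 3 and 273 in replicate 4. That of spen on 2L, which encodes an RNA-binding regulator of transcription, had 545, 302 and 260 in the same order. These signals are the values the authors deposited for each peak, on a scale that is not stated, and they serve to rank and describe peaks. The strongest member ranked 39 among nuclear IDR peaks, and 6 members were among the 100 strongest. The next strongest were in Eip75B (516), an ecdysone-induced nuclear receptor gene, in Pgant9 (446), a gene for an enzyme of O-glycosylation, in gpp (431), the fly counterpart of the histone methyltransferase gene DOT1L, and in Dad (398), the inhibitory Smad that damps Dpp signalling.

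The 25 strongest members, with signals from 272 to 562, lay in 24 host genes, where a host is the longest gene whose body holds the summit. Regulators of chromatin and transcription among them were trx (391), a histone methyltransferase of the Trithorax group, Mi-2 (285), a chromatin remodeller whose first intron here also lies in Su(Tpl), a gene for a transcription elongation factor, simj (282), the gene of a partner protein of Mi-2, shn (316), which encodes Schnurri, and knrl (292), which encodes a nuclear receptor type factor. Receptors and signalling proteins were fz (335) and fz2 (319 and 275), both receptors for Wnt ligands, Ptp61F (396), a tyrosine phosphatase, Raf (272), a kinase of the MAP kinase cascade, and Fur1 (273), a furin-type protease. Adhesion and scaffold genes were Cad86C (354), a cadherin, pyd (274), a protein of cell junctions, and Prosap (288), a Shank-type scaffold. Other hosts were Prp16 (307), a splicing helicase, B4 (287) and mdu (278).

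Replicate signals of these strong members were close. At fz the values were 167 in replicate 3 and 167 in replicate 4, and at Eip75B 262 and 261. At Dad they were 211 and 184. Of the 25 strongest members, 22 had replicate signals within 1.5-fold of each other and 0 differed by more than 2-fold. The widest gap among those described was at Fur1, with 132 in replicate 3 and 69.8 in replicate 4. This gap depends on which of several overlapping entries gives the value. A stronger replicate 4 entry, of rank 343, also overlapped it, with its summit more than 100 bp away.

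Over all members, the signal ran from 82.6 to 562 with a median of 112 and quartiles of 94.8 and 157. Median signal was 59.7 in replicate 3 and 56.8 in replicate 4, and 212 members were higher in replicate 3 against 198 in replicate 4. An entry overlapping by at least 1 bp was present in both replicates for 410 of 412 members (99.5%). Because the IDR list is built from both replicates, this is a description and no independent check. The 2 members with no entry in replicate 4 were in lncRNA:CR44357 (48.5 in replicate 3) and Chpf (44.6). Of the 410, 295 had values within 1.5-fold (72.0%, 67.4 to 76.1) and 39 differed by more than 2-fold, 25 of them higher in replicate 3 and 14 in replicate 4. Where members overlap, 1 replicate entry can give the value of both. Wide differences were 80.5 against 12.8 at tun and 12.5 against 57.5 at lncRNA:let7C, in replicate 3 and replicate 4. Those of similar size at crp and at a weaker member of Prosap depend on which of several overlapping entries gives the value. The same may hold at tun, which was not tested. Its 12.8 was the lowest replicate 4 value, yet the best overlapping entry of every member ranked 13285 or higher of 29999. These members and Chpf and lncRNA:CR44357 are named for their values and were chosen after these were seen.

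**Figure D1:**
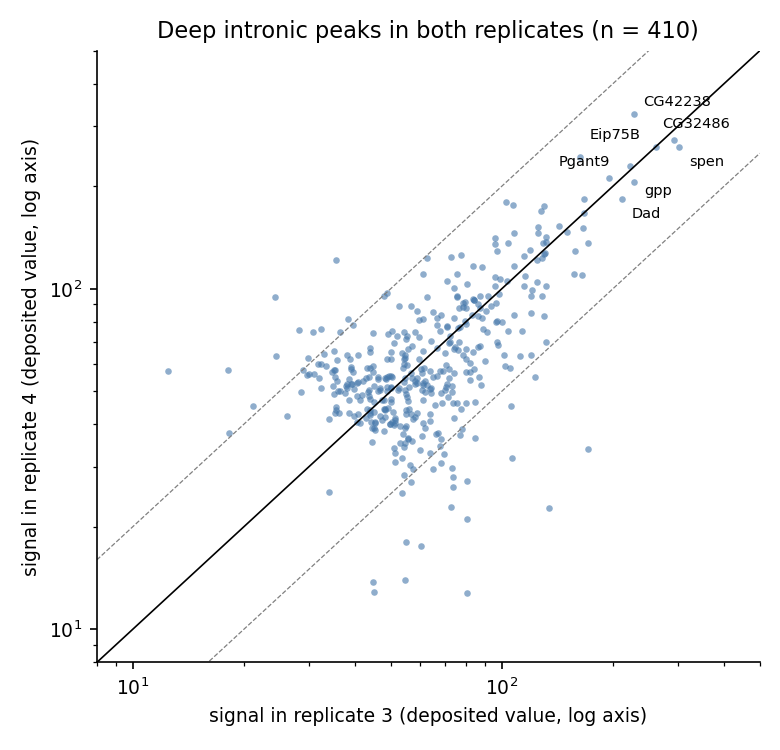
Signal of each deep intronic peak in replicate 3 (x axis) and replicate 4 (y axis), both as deposited and on log axes, for the 410 members with an entry in both. The solid line marks equal values and the dashed lines a 2-fold difference. The 7 strongest members are named and lie near the solid line, and 39 members lie outside the dashed lines.

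Members were then set beside peaks of other positions in how the replicates listed them. No entry in replicate 4 was found for 0.485% of members and for 6.78% of the 1505 promoter peaks (summit within 500 bp of a TSS), a difference of -6.29 percentage points (95% Newcombe interval -7.72 to -4.57). The same share was 2.69% among the 893 intronic peaks nearer to a TSS, a difference of -2.20 points (-3.53 to -0.662). The replicate summit was within 100 bp in both replicates at 91.0% of members and 83.8% of promoter peaks, a difference of 7.23 points (3.61 to 10.3). Against intronic peaks nearer to a TSS it differed by 3.11 points (-0.608 to 6.44). Members were less often among the strongest 25% of nuclear peaks than promoter peaks were, at 20.1% and 28.7%, a difference of -8.56 points (-12.8 to -3.86). Against intronic peaks nearer to a TSS this difference was -3.37 points (-7.98 to 1.55). The share among the strongest of both replicates differed from that of promoter peaks by -4.44 points (-9.75 to 0.684). Against the 468 intergenic peaks, the intervals for no entry in replicate 4, the summit within 100 bp and the strongest 25% held 0, at -1.11 to 1.36, -6.44 to 0.722 and -6.33 to 4.39 points. These intervals treat peaks as independent and cover counting error only, and neighbouring peaks share their surroundings. The median signal of 112 in members compared with 117 in intronic peaks nearer to a TSS, 117 in intergenic peaks and 125 in promoter peaks.

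The density of peaks within introns was lower the further the sequence lay from a TSS. Members numbered 14.6 per Mb of the 28.3 Mb open to the rule (exact Poisson interval 13.2 to 16.1). Intronic sequence 500 to 1000 bp from a TSS held 57.4 peaks per Mb (50.5 to 64.9) and that at 2000 to 5000 bp held 27.3 (24.5 to 30.3). Within the members' range the density was 21.4 (18.8 to 24.3) at 5000 to 10000 bp, 14.9 (12.5 to 17.8) at 10000 to 20000 bp and 10.9 (7.99 to 14.7) at 20000 to 40000 bp. Beyond 40000 bp, 2 members lay in 4.52 Mb, in ds and mamo, at 0.442 per Mb (0.0536 to 1.60). Soft-masked repeats made up 37.4% of that sequence and 22.2% at 5000 to 10000 bp, and their part in the difference was not tested. Intergenic sequence at 10000 to 20000 bp held 7.21 peaks per Mb (5.05 to 9.99), below the intronic density at that distance, with intervals that did not overlap.

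**Figure D2:**
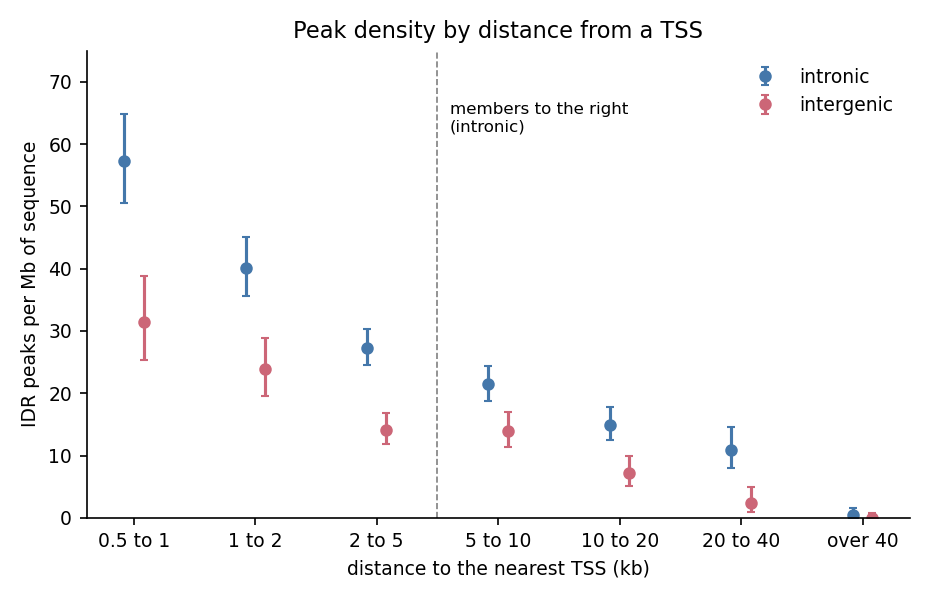
IDR peaks per Mb of sequence (y axis) by distance to the nearest TSS in kb (x axis), for intronic and intergenic summits outside promoters. Points are counts over sequence length and bars are exact Poisson intervals of 95%. Intronic points to the right of the dashed line are the deep intronic peaks, which run from 21.4 to 0.442 per Mb.

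The rule's threshold cut through a continuous range. The members nearest to it lay in sick, dnt, Egfr, Tis11 and cv-c, at 5004 to 5055 bp from a TSS, with signals of 121, 112, 108, 101 and 150. The intronic peaks just short of it lay in ush, Gug, CG46339, smash and Nuak, at 4992 down to 4945 bp, with signals of 224, 193, 248, 104 and 107. Over all members, the median distance to a TSS was 9006 bp (quartiles 6767 and 13105, highest 42370). The nearest TSS belonged to a host gene for 244 members (59.2%, 54.4 to 63.9). The strongest member of Dad was an exception, since the TSS of Ns1 was the nearest to it, at 7488 bp.

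By arm, members numbered 18.9 per Mb of eligible sequence on 2L (14.9 to 23.5), 12.3 on 2R (9.40 to 15.8), 19.3 on 3L (15.8 to 23.4) and 11.9 on 3R (9.66 to 14.5). On X the density was 13.4 (10.5 to 16.9), and its interval overlapped that of the 4 large autosome arms together, 15.02 (13.5 to 16.7). Chromosome 4 held 0 members in 0.249 Mb, for which the exact upper limit is 14.8 per Mb, although 35 IDR peaks of other positions lay on it. The intervals for 2L and 3L did not overlap that for 3R.

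The rule itself favours long introns. The intron around a member had a median length of 17.5 kb (quartiles 11.0 and 31.1), and that around positions sampled every 100 bp of eligible sequence 20.4 kb (9.61 and 46.4). For members, the nearest exon of the host was a median of 5142 bp away, against 5037 bp for eligible sequence, with a lowest value of 70 bp. First introns held 122 members (29.6%, 25.4 to 34.2) and second introns 112 (27.2%, 23.1 to 31.7), counted from the 5′ end of the merged exons of the host. Of the eligible sequence, 17.2% lay in first introns and 20.9% in second introns, both below the intervals of the members. These shares weigh each base alike, so genes with much eligible sequence count most, such as Myo81F with 1896 kb and 0 members. Their part in the difference was not tested. An interval that touched an exon was found for 8 members. The longest host was protein-coding for 396 of 412 members, and 26 members lay inside more than 1 gene body. Annotated transposable elements covered 9.52% of the eligible sequence and held 0 of 412 summits, which allows a share of up to 0.728% (3 counts of the total). Whether reads from such repeats were kept by the authors' alignment is not given in the sources used here.

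Members often shared a host. Of the 1811 genes with any eligible sequence, 237 held at least 1 member (13.1%), and of the 220 longest hosts 95 held 2 or more and 44 held 3 or more. Together 287 of 412 members (69.7%, 65.1 to 73.9) had a companion in the same host. At the scale of introns, 244 members lay in 91 introns that held at least 2, and 5 introns held at least 5. Members of 1 gene are not replicates, and 14 pairs of neighbouring members overlapped and so share sequence.

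Eip75B, a target of the steroid hormone ecdysone that encodes a nuclear receptor, held most, with 11. Of these, 8 were in intron 5, which is 25.5 kb long, with signals of 91.5 to 516, 39.0 to 262 in replicate 3 and 40.7 to 261 in replicate 4. One member stood far above the other 10, of which the next had 146 in the IDR list. Snoo, a gene of the Ski and Sno family of Smad cofactors, held 9 in its second intron of 78.4 kb, from 86.4 to 228. Its members spanned 64.6 kb, with 24.4 to 120 in replicate 3 and 30.4 to 135 in replicate 4, so the ranges of the replicates were alike.

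In sbb, the gene of a transcriptional corepressor, 8 members lay within a stretch of 15.9 kb in the first intron, which is 49.4 kb long. Their signals ran from 99.8 to 259, with 57.3 to 165 in replicate 3 and 54.8 to 146 in replicate 4. The 8 members of Tet, a gene for an enzyme of the TET dioxygenase family, had signals from 87.6 to 229. The adhesion gene kirre, which acts in myoblast fusion, is 394 kb long and had its 7 members within a stretch of 36.8 kb in its ninth intron, at 98.7 to 184. The 5 in fz had signals of 335, 162, 90.8, 90.4 and 86.1, so again 1 stood above the rest. The other hosts with 5 or more were Eip74EF with 7, an ETS-type gene of the ecdysone response, tara and heca with 6 each, and fz2 and tai with 5 each, tai being a coactivator gene of the ecdysone receptor.

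**Figure D3:**
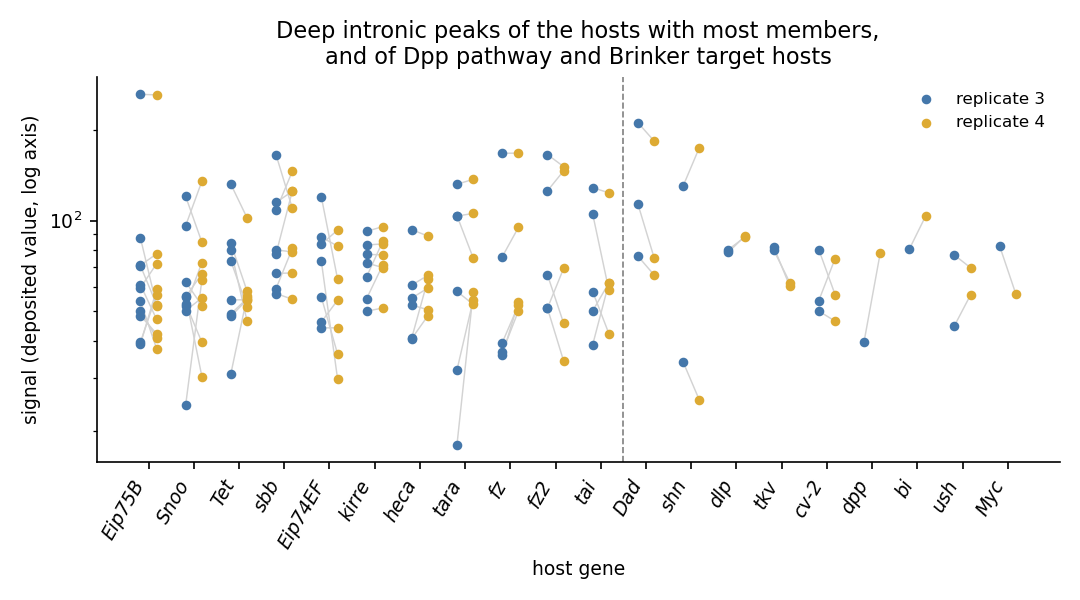
Signal of each member (y axis, deposited value, log axis) in replicate 3 and replicate 4, joined by a line, for the 11 genes with 5 or more members (left of the dashed line) and for hosts of the Dpp pathway and Brinker target lists (right). The strongest member of Eip75B stands at 262 and 261, above its other 10, and dpp has a single member with 39.6 and 78.2.

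Hosts also had peaks at their own promoters more often than other genes with eligible sequence. An IDR summit lay within 500 bp of an own TSS in 98 of 237 hosts (41.4%, 35.3 to 47.7) and in 281 of 1574 genes with no member (17.9%, 16.0 to 19.8), a difference of 23.5 points (95% Newcombe interval 17.1 to 30.1). Among genes with 20 to 50 kb of eligible sequence the shares were 50.6% of 77 hosts (39.7 to 61.5) and 11.1% of 207 others (7.52 to 16.1). Among genes with 5 to 20 kb they were 38.0% of 92 hosts and 18.9% of 475 others. The hosts' share was thus higher within both of these ranges of eligible sequence. The share of genes with a member was higher with more eligible sequence, from 3.22% of genes with up to 5 kb to 33.9% above 50 kb. Of the 50 protein-coding genes with the most eligible sequence, 13 were hosts (26.0%), with 3.62 members per Mb against 14.6 for all eligible sequence. The 37 others include Myo81F, with 1896 kb of eligible sequence, of which 41.4% was soft-masked, and bru3, with 215 kb, of which 20.9% was.

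Genes of the Dpp pathway were looked at by role. Of 12 listed genes with eligible sequence, 6 were hosts, against the 13.1% of all genes with such sequence, and they held 13 members at 89.6 per Mb (47.7 to 153) against 14.6 for all eligible sequence. Their median signal was 142, against 112 for all members. The list was chosen with earlier results of these data known, and these counts describe it without a test.

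The ligand gene dpp had 1 member in its first intron, whose replicate signals were 39.6 and 78.2, the first in replicate 3. The receptor gene tkv had 2, with 82.0 and 60.6 at the first and 80.0 and 62.3 at the second. All 4 values of tkv thus lay within 1.5-fold. Among extracellular modulators, dlp, a glypican gene that shapes the spread of morphogens, had 80.1 and 88.0 at one member and 78.5 and 88.7 at the other. The BMP-binding protein gene cv-2 had 3, with 80.1 and 56.9, 54.3 and 74.8, and 50.1 and 46.4, in replicate 3 and then replicate 4. The order of its 2 strongest members differed between the replicates.

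Inside the cell, Dad had 3 members. The strongest had 211 in replicate 3 and 184 in replicate 4, the one in the third intron 114 and 75.2, and the third 76.2 and 66.0. The strongest and the weakest of these intervals overlap, so they share sequence and may not be separate sites. The nuclear cofactor gene shn had 130 and 175 at its stronger member and 34.0 and 25.4 at a weaker one that overlaps it. The strongest member of Dad thus had the highest signal among members of the pathway in both replicates.

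Of 15 listed Brinker target genes with eligible sequence, 4 were hosts, with 7 members at 34.9 per Mb (14.0 to 71.9), an interval that holds the 14.6 of all eligible sequence. Besides Dad, they were bi, the T-box gene whose wing domain Dpp sets, with 80.3 in replicate 3 and 103 in replicate 4 at its 1 member, ush, a cofactor of GATA factors, with 76.8 and 69.7 at one and 44.8 and 56.8 at the other, and Myc, a growth regulator, with 82.2 and 56.9. The members of bi and Myc also lie inside longer noncoding genes, lncRNA:CR32773 and lncRNA:CR44999, which are their longest hosts. The member at bi was 22579 bp from the nearest TSS, that of bi itself.

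The counts of the other lists are to be read against the 13.1% of all genes with eligible sequence that were hosts and the 14.6 members per Mb of that sequence. The host share was 3.22% of genes with up to 5 kb of eligible sequence and 33.9% above 50 kb. The 13.1% is thus not matched to the eligible length of listed genes. The 14.6 likewise includes the 50 protein-coding genes with the most eligible sequence, which held 3.62 per Mb. The genes of the ecdysone response held 37 members. They were hosts in 10 of 18 cases, at 87.2 members per Mb (61.4 to 120) and a median signal of 105. Besides Eip75B and tai, the leading host was E23 (223), an ABC transporter gene. Wnt pathway genes were hosts in 5 of 10 cases with 15 members (58.1 per Mb, 32.5 to 95.7), of which arr, a Wnt coreceptor gene, had 191. Of 24 listed Notch pathway genes 23 matched by name, and 4 of the 9 with eligible sequence were hosts (44.8 per Mb, 16.5 to 97.6). Those counted were led by N itself (222), the receptor, then kuz (99.95), a protease that cleaves it, and mam (89.4), its coactivator. Delta, the gene of a ligand of N, was a host with 1 member (173) but is not among the 9 counted. Genes of EGF and FGF signalling were hosts in 4 of 13 cases (40.4 per Mb, 16.2 to 83.3). They included aop (151), an ETS repressor, and Egfr (108), the receptor, after Raf. Of cell cycle and growth genes, 3 of 5 were hosts (247 per Mb, 90.8 to 539). Mnt, a partner protein of the Myc network, held 4 members of up to 130, with E2f1 at 96.9.

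In the list of wing disc transcription factors, 6 of 28 genes were hosts, at 20.7 members per Mb (9.49 to 39.4, an interval that holds 14.6), led by grn (230), a GATA factor, hth (168), a homeodomain cofactor of Hox proteins, and caup (124), a gene of the Iroquois complex. Antp (222) was the 1 host among 8 Hox genes (12.5%, near the 13.1% of all genes), with 4 members, all of which also lie inside CG46458. The Hippo list had 2 hosts of 8 genes (44.5 per Mb, 14.4 to 104), ds (205), a protocadherin, and kibra (85.2). The Polycomb list had 2 of 6 (60.3 per Mb, 19.6 to 141), Psc (240) and jing (169). The Hedgehog list had 1 of 5 (37.2 per Mb, 4.51 to 134), rdx (85.4). The insulin list had 1 of 3 (53.5 per Mb, 6.48 to 193), InR (123), the insulin receptor gene. Of these intervals, that of the Polycomb list alone leaves out 14.6. Cell adhesion and guidance genes were hosts in 6 of 40 cases, a share near that of all genes. Their 7.76 members per Mb (4.13 to 13.3, an interval below 14.6) included those of mew (206), kirre (184) and Fas2 (107). Ion channel genes were hosts in 1 of 23 cases, at 1.59 per Mb (0.0402 to 8.85), the host being Shal (138), a potassium channel gene. Cytoskeleton and signalling genes were hosts in 5 of 23 cases (11.9 per Mb, 5.70 to 21.9), led by msn (144), rut (138) and Pka-C1 (116).

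The tissue marker lists were small in eligible sequence. Hosts were found among muscle genes (Zasp52 with 105 and twi with 94.4, 2 of 9), the salivary gland list (CrebA with 132, 1 of 1), the blood list (ush, 1 of 5) and the tracheal list (knrl, 1 of 5). The neuron (9 genes), gut (5), fat body (3), cuticle (1) and germline (1) lists had 0 hosts. So did the lists of eye disc transcription factors (7) and insulator genes (4), which are not tissue marker lists. With so little eligible sequence these counts of 0 allow wide densities, with an exact upper limit of 47.4 per Mb for the neuron list, and name no cell type.

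The sequence at the summits of members had a distinct base composition. GC content was 35.9% ± 6.67 (SD, n = 412 windows) within 100 bp of the summit and 40.5% ± 8.14 (SD, n = 824) in windows centred 1000 bp to either side. All tiled windows of eligible sequence had 40.3% ± 7.85 (SD, n = 136445). In 291 members (70.6%) the summit window was lower in GC than the mean of its own flanks. In steps of 50 bp the mean was 32.6% at the summit, 44.0% at 250 bp upstream and 44.5% at 200 bp downstream on the reference strand, and 40.4% at 1000 bp upstream. The profile was thus a narrow trough between shoulders that stand above the level further out.

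**Figure D4:**
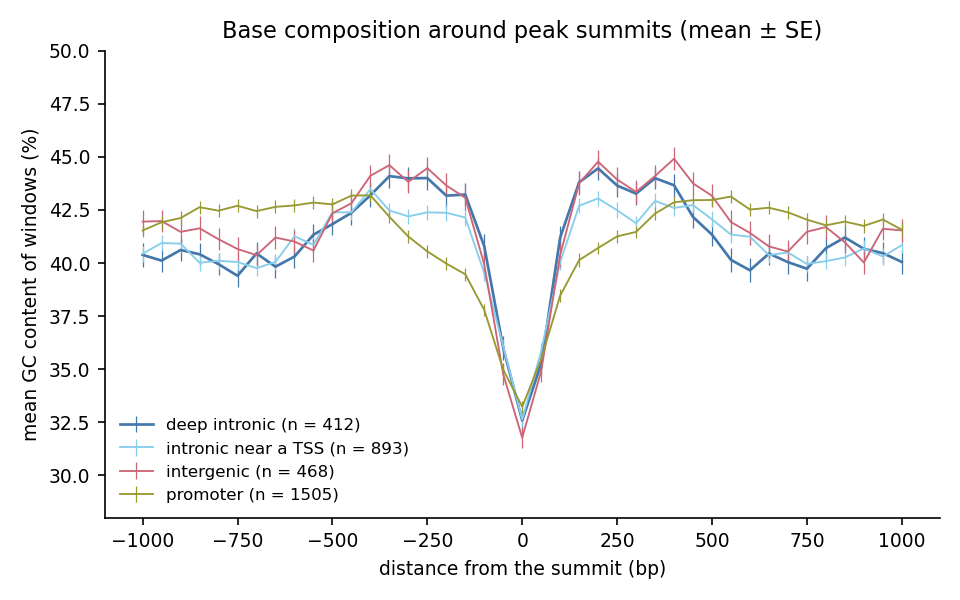
Mean GC content in percent of 51-bp windows (y axis) by distance from the summit in bp (x axis) for 4 position classes, with bars of 1 standard error over windows. Deep intronic peaks fall to 32.6% at the summit with shoulders near 44.0%, and the other classes have a trough at the same place, with lower shoulders at promoters.

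Summits of other positions were also low in GC, at 35.9% in intronic peaks nearer to a TSS, 35.1% in intergenic peaks and 35.4% in promoter peaks over the same 201 bp. The strongest 103 members had 34.7% and the weakest 103 had 36.6%. Flanks had 40.5% in members, 40.6% in intronic peaks nearer to a TSS, 41.7% in intergenic peaks and 41.9% at promoters.

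The Brinker motif was no more frequent at summits than beside them. It was in 61 of 412 summit windows (14.8%, 11.7 to 18.6), in 17.8% of flank windows (15.4 to 20.6) and in 15.8% of all tiled windows. Tiled windows weighted to the GC content of the summits, in bins of 5%, held it in 11.3%, just below the interval of the members. Within the members it was in 13 of the strongest 103 (12.6%, 7.53 to 20.4) and 19 of the weakest 103 (18.4%, 12.1 to 27.0), intervals that overlap. Among intronic peaks nearer to a TSS, intergenic peaks and promoter peaks the shares were 14.2%, 12.2% and 14.9%. The form with a leading T was in 7.28% of member windows (5.15 to 10.2), 9.22% of flank windows and 6.64% of tiled windows. Tiles at the GC content of the summits held it in 4.75%, below the interval of the members. A match is a description of letters, and its absence from a window says nothing about the factor.

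The GC box of Mad, GCCGNC on either strand, was in 11.9% of summit windows (9.11 to 15.4), 19.9% of flanks (17.3 to 22.8) and 11.1% of tiles at the GC content of the summits. The short Medea site, GTCTG, was in 19.9% of summits and 22.7% of flanks. The silencer element read by Mad, Medea and Schnurri was in 0 of 412 summit windows, which allows up to 0.728%, and in 0.0388% of tiles. The strongest member of Dad and those of tkv are among the windows without it.

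Of the 30 motifs searched on both strands, 4 had an interval at summits that left out both the share of all tiles and that of tiles at the GC content of the summits. GAGAGAG, the motif of GAGA factor, was in 6.07% of summit windows (4.14 to 8.80), 3.16% of flanks (2.16 to 4.58), 2.66% of tiles and 2.05% of tiles at the GC content of the summits. A run of 8 A residues was in 23.1% of summits (19.3 to 27.4), 14.3% of flanks (12.1 to 16.9), and 16.6% of tiles at the same GC content. The ETS motif CCGGAA was the rarer one, in 1.46% of summits (0.669 to 3.14), 4.25% of flanks and 3.75% of tiles at the same GC content. The forkhead motif TGTTTAC was in 6.80% of summits (4.74 to 9.65), 4.73% of flanks and 3.89% of tiles. Against the flanks, the run of A had an interval apart from that of the summits, and the intervals of the other 3 overlapped. Intronic peaks nearer to a TSS had 8.17% for GAGAGAG, 20.5% for the run of A, 1.57% for CCGGAA and 6.94% for TGTTTAC. In the same order, promoter peaks had 8.70%, 16.0%, 2.79% and 6.84%, and intergenic peaks 2.14%, 17.1%, 3.21% and 4.91%. The GATA motif, GATA with A or T before it and a purine after it, was in 34.5% of summits and 30.0% of flanks. It was in 35.7% of tiles at the GC content of the summits and in 42.1% of intronic peaks nearer to a TSS. Zelda sites, CAGGTA, were in 2.91% of summits and 3.75% of tiles at the same GC content, and the Pho motif GCCATT in 11.4% and 13.4%.

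**Figure D5:**
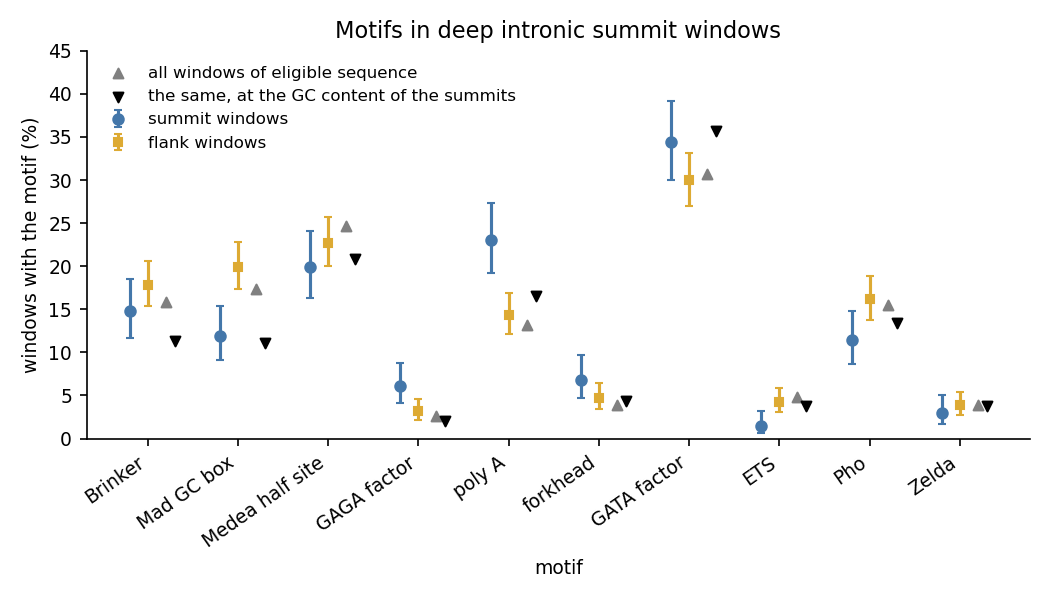
Share of 201-bp windows with each of 10 motifs (y axis, percent) at member summits and in their flanks, with Wilson intervals of 95%, and in all tiled windows of eligible sequence before and after weighting to the GC content of the summits. The Brinker motif is at 14.8% of summits and 17.8% of flanks, and the run of A is at 23.1% and 14.3%.

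The word of 10 bases printed above was in 14 of 412 member windows (3.40%, 2.03 to 5.62), 1 of 824 flank windows (0.121%) and 222 of 136445 tiles (0.163%). The other position classes did not enter its choice. There it was in 16 of 893 intronic peaks nearer to a TSS (1.79%, 1.11 to 2.89), 12 of 468 intergenic peaks (2.56%, 1.47 to 4.43), 12 of 1505 promoter peaks (0.797%, 0.457 to 1.39) and 0 of 102 exonic peaks, which allows up to 2.94%. Of its 887 copies on the arms, 57 (6.43%, 4.99 to 8.24) lay within 100 bp of a nuclear IDR summit, a zone that covers 0.507% of the bases. These include the 14 member copies through which the word was chosen, and without them the count was 43 of 873 (4.93%, 3.68 to 6.57). In the members it lay to the side of the summit, at a median of 80.5 bp, and 12 of the 14 copies were 50 bp or more away. The hosts with the highest signals among the 14 were Pgant9 (446) and Cad86C (354), and the lowest was pum, with 34.1 in replicate 3 and 41.4 in replicate 4. All 2080 words of 6 bases, strands merged, were ranked by share in members over share in tiles, with 1 point added to each share. The first, GTGCAC, was in 9.47% of summits, 3.64% of flanks and 4.04% of tiles. It was chosen on these windows, so its share in members is a description.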

How the data were processed

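ChIP-seq peak lists on dm6 were used: for each replicate, for both pooled, and the list kept by IDR, 4 in all. They were deposited by the authors without headers; their roles, and the use of a control alignment, are given per the labels' notes and file notes. The names of the aligner and peak caller, and the threshold of IDR, were not given in the sources used here. Signal values were used as deposited by the authors, with no rescaling. The deposited −log10 q-value reached its ceiling of 3.43 in 140 of 412 members and played no part in ranks. Summits were taken as the interval start plus the deposited offset. It equalled the midpoint within 1 bp in 349 members, which limits its precision.

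Genes, exons and TSSs came from Ensembl release 115 (BDGP 6.54), and sequence and soft-masking from RefSeq for Release 6. A member's replicate signal is the strongest overlapping entry with its summit within 100 bp, or else the strongest overlapping entry. Eligible sequence is every base that fits the rule. Shares carry 95% Wilson intervals, differences Newcombe intervals and densities exact Poisson intervals, which cover counting error only. No p-value was computed, since peaks are not replicates and there is 1 group. Python 3.11.15, pandas 2.3.3, numpy 2.4.6 and scipy 1.17.1 were used, and the rule, motif search and intervals were tested on simulated data.

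Genes were named by a rule: longest hosts of the 25 strongest members, the 10 hosts with most members, every host of the Dpp pathway and Brinker target lists, and up to 3 hosts of each other list. One named host is not reported here. The 27 gene lists and 30 motifs, and the members, were chosen with earlier results of these data known. Of 562 listed names, 7 matched through synonyms and 8 did not match and are not analysed here.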

Additional observations from a re-analysis of the deposited data

How the results depend on the processing

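Of 13 alternative settings, 8 were run for all 8 main results and the others for those they bear on, which gave 75 values, of which 55 stayed within 1.5-fold for counts and densities, within the Wilson interval for shares, within the quartiles for signal, or within 1 SD for GC content. With a TSS distance above 2500 bp there were 686 members in 374 hosts, and above 10000 bp 175 in 111, of which 100% had entries in both replicates. At or above the median signal of nuclear peaks, 181 members in 136 hosts were left, at 6.41 per Mb, with a median signal of 166, entries in both replicates for 100% and 97.2% among the strongest of both replicates, where the full list had 62.9%. Entries in both replicates were found for 98.1% when at least 50% of the peak had to overlap, and for 91.0% with the replicate summit within 100 bp, where 53.6% were among the strongest of both. Brinker motif share moved with window size, to 6.07% at 50 bp and 30.6% at 200 bp on either side. To leave out a replicate, the 3413 strongest entries of the other were used with no IDR. The list size was thus fixed in advance. This gave 353 to 428 members, 12.5 to 15.1 per Mb, 215 to 247 hosts and entries in both replicates for 95.5% to 98.6%. The Brinker motif was in 14.4% to 14.7%, and GC content was 36.1% to 36.6%. Median signal was 57.0 to 66.6, a value of 1 replicate that cannot be compared with that of the IDR list. The share among the strongest of both was 60.3% to 73.7%. It cannot be compared with 62.9%, because each such member was already among the strongest of its own replicate. The density outside repeats and transposable elements, an alternative chosen after seeing the data, was 14.6 per Mb. No paired analysis was possible because the series has 1 group. The lists give no read counts, so depth and its limits on weak members are unknown. Signals of the replicates assume a shared scale, which was not tested, and a site that overlapping entries list more than once was counted each time.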
